A study of Mus musculus with 2 samples.

Results

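The Pla2g4 genes encode the cytosolic phospholipases A2 of group IV, and all 6 mouse members listed for study, Pla2g4a to Pla2g4f, were found by gene name among the non-control probes of the arrays. They had 7 probes among 39422, with 2 probes for Pla2g4e and 1 for each other member, and they make up 6 of 24288 named genes. The arrays measured RNA from the skin of newborn C57BL/6N mice on postnatal day 0. The wild-type pool (Pla2g4e+/+) and the knockout pool (Pla2g4e-/-) each held equal amounts of total RNA from 5 animals and were hybridised to 1 array, so no difference below has a replicate check, and no test was run.

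Phospholipases A2 cut a fatty acid from a membrane phospholipid and leave a lysophospholipid. Pla2g4a, the best studied member, moves to membranes when calcium rises and frees arachidonic acid, the precursor of prostaglandins and leukotrienes. Pla2g4e differs in its main reaction: it is a calcium-dependent N-acyltransferase that makes N-acyl phosphatidylethanolamines, from which the anti-inflammatory N-acylethanolamines are released. Pla2g4b, Pla2g4d, Pla2g4e and Pla2g4f lie together on mouse chromosome 2, and the human counterpart of Pla2g4d is known for its raised RNA in psoriatic epidermis.

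All probes were 60 bases long. The stretches below are shown because what each gene's reading means depends on what its probe can bind. They are read from the deposited files, 5′ to 3′, and give the first 30 bases of each probe except for Pla2g4b, where bases 31 to 60 are given.
Pla2g4a: cccattgtgtgtgaatgttattctgaacta
Pla2g4b: ctggtgggaTGGCTCAGCGGTTAAgagtgc
Pla2g4c: tacacaccagacctggtgagagatttgctg
Pla2g4d: ctgttctgtccctagtttgttgagtggttt
Pla2g4e (3′ probe): tggttgttgagagattaatgacacccaacg
Pla2g4e (5′ probe): atttatcaagccagacgaaatgagaggcaa
Pla2g4f: cttcggggactttatcatcaacgggccaga

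The capitals in the Pla2g4b probe mark the 15-base word of that probe that occurs most often in promoter sequence. On either strand, that word lay in 14 of 32851 mouse promoter windows of 300 bases from RefSeq (GRCm38.p6), whereas no 15-base word of any other member's probe lay in more than 2. The end of the Pla2g4b probe resembles the start of the B2 family of short interspersed repeats, which are scattered through mouse genes and their transcripts. The array also held 2 other probes that shared a run of 20 bases with it, and 0 probes did so for any other member. Since 0 of the 7 probes shared such a run with another Pla2g4 probe, the probes of the family read different stretches. The part that repeat-bearing RNA takes in the Pla2g4b reading was not tested.

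Markers of the labelled tissue were read on both arrays. Of 11 keratinocyte marker genes on the array, 11 were well above background in both pools, a mark that 19397 of 24288 named genes also met. All 11 skeletal muscle and all 8 fibroblast markers met it too, so the mark alone does not single out epidermis. Krt5 read 247197 (wild type) and 224586 (knockout), and Krt10 read 232907 and 241231. The pools were not matched for sex: wild-type skin gave 2893 for the Y-linked Ddx3y where knockout skin gave 2.36, not well above background, and the X-inactivation RNA Xist read 796 and 2889. Genotype and sex therefore cannot be told apart for any difference given here. The arrays lay on 1 slide, and 19397 genes had a probe well above background on both.

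Signals are given first as processed intensities without scaling, each with the scanner software's own error. Differences are in log2 after each array was scaled to its 75th percentile, as knockout minus wild type, again with the scanner error. That error is mostly a preset 10% of the signal per array, per the file headers, and it leaves out the animals. In 399 probes printed more than once, the SD of the difference between spots had a median of 0.041 log2.

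Pla2g4e, the gene inactivated in these mice, gave less signal in knockout skin but remained well above background there at its 3′ probe. Its 3′ probe, A_52_P203948 at mm9 chr2:119992643-119992702 on the minus strand, matches NM_177845. It read 662 ± 66.3 in wild-type skin and 320 ± 32.1 in knockout skin. The knockout value was 51.4% of the wild-type value after scaling, a difference of -0.96 ± 0.20 log2.

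The 5′ probe of Pla2g4e, A_55_P2122896 at mm9 chr2:120071162-120071221, lies 78.5 kb away and matches the predicted transcript XM_006499774. It read 10.6 ± 3.17 in wild-type skin, not well above background, and 11.7 ± 2.47 in knockout skin, where the software marked it as above. The readings overlap within their errors, and no fold is given, because the bound it would allow is under 1. The sources used here do not say which exons were removed in this mouse line. Whether a probe lies in the deleted part, and so whether it can check the genotype, is therefore not known.

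The 5′ probe can be placed against the start of the gene. Its whole sequence lies in the RefSeq promoter window of Pla2g4e at GRCm38.p6 chr2:120245286-120245585, minus strand, which holds 250 bases before and 50 after a start site. In the line below, capitals mark the probe, bases 101 to 160 of the window.
Pla2g4e promoter: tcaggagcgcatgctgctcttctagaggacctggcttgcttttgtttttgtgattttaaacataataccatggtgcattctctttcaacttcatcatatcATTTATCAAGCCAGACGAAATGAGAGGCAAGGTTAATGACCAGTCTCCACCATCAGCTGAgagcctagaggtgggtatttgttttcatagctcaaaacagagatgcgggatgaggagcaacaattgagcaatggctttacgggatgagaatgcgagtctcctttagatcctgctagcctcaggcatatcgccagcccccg
The probe ends 90 bases before that start site, so RNA begun there would not contain it. Its dim reading thus bears on transcripts that begin further upstream, and the 3′ probe alone gives a level for Pla2g4e in these pools.

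**Figure D1:**
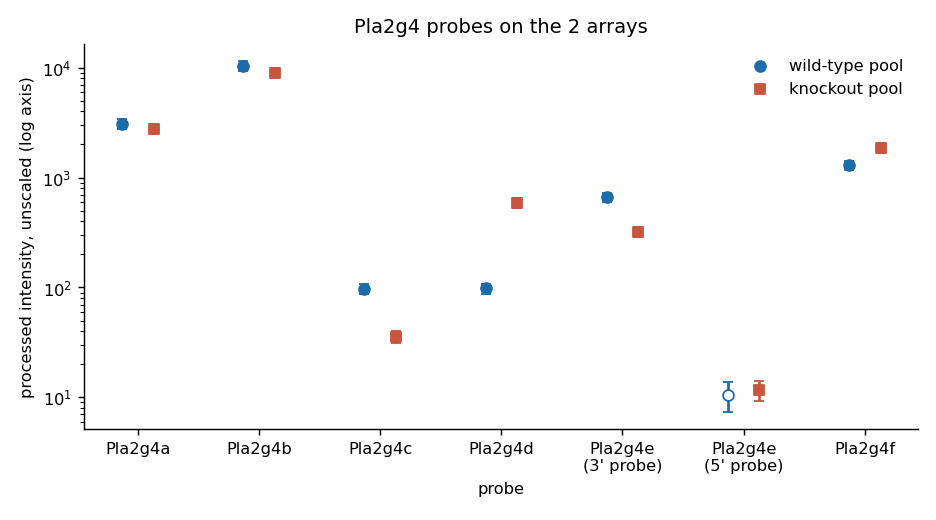
Processed intensity of each Pla2g4 probe (log axis, unscaled) in the wild-type pool (circles) and the knockout pool (squares), 1 array each; bars are the scanner error and the open symbol was not well above background. Pla2g4d reads 98.3 and 592, while Pla2g4e at its 3′ probe and Pla2g4c are lower in the knockout pool.

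Of the other members, Pla2g4d showed the largest difference. Its probe at mm9 chr2:120091617-120091676, minus strand, for NM_001024137, read 98.3 ± 10.3 in wild-type skin and 592 ± 59.2 in knockout skin. The knockout pool was 6.42-fold higher after scaling, at 2.68 ± 0.21 log2. Only 31 of 19397 measured genes had a larger difference in that direction. The wild-type reading is dim, and the size depends on how background is treated. It was 2.34 with no background subtraction and 2.175 with normexp correction. Pla2g4d and Pla2g4e, neighbours on the same strand, thus differed in opposite directions, and their differences lay 3.64 ± 0.29 log2 apart.

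Pla2g4f, the next member along the chromosome, was higher in the knockout pool by a smaller amount. With a probe at mm9 chr2:120126274-120126333, minus strand, for NM_001024145, it read 1290 ± 129 in wild-type skin and 1856 ± 186 in knockout skin. The difference was 0.62 ± 0.20 log2, or 1.53-fold, and 1189 genes had a larger one. Without scaling it was 0.53 and with scaling to the median 0.57, both below 1.5-fold.

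Pla2g4c, a member that lacks the calcium-binding domain and acts without calcium, was lower in the knockout pool. Its probe at mm9 chr7:13941578-13941637, plus strand, for NM_001168504, read 96.9 ± 10.4 in wild-type skin and 35.5 ± 4.44 in knockout skin. The difference was -1.36 ± 0.24 log2, or 2.56-fold lower, with 126 genes lower still. The gene is among the dimmest 25% of measured genes, whose central 95% of differences ran from -1.03 to 1.22. Its size depends on how background is treated: it was -0.77 with no background subtraction and -0.52, under 1.5-fold, with normexp correction.

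Pla2g4a and Pla2g4b differed by less than their scanner errors. Pla2g4a, with a probe at mm9 chr1:151676814-151676873, minus strand, for NM_008869, read 3083 ± 308 in wild-type skin and 2769 ± 277 in knockout skin, a difference of -0.06 ± 0.20 log2. The 95% interval that the scanner error gives ran from -0.46 to 0.34. Pla2g4b, with a probe at mm9 chr2:119868539-119868598, plus strand, for NM_145378, read 10345 ± 1035 and 9015 ± 901. Its difference was -0.11 ± 0.20 log2, with an interval from -0.51 to 0.29. Both intervals cover scanner error only. The file also assigns the Pla2g4b probe to NR_104353, the read-through RNA of Jmjd7 and Pla2g4b, so RNA of the read-through and of Pla2g4b itself cannot be told apart.

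As a family, 2 of 6 members (Pla2g4d and Pla2g4f) exceeded the wild-type value by 1.5-fold or more, against 6.74% of measured genes, and 2 (Pla2g4e and Pla2g4c) fell short of it by as much, against 4.5%. At 2-fold, Pla2g4d was higher and Pla2g4c lower, against 2.23% and 1.44%. Pla2g4e was past 2-fold lower without scaling (-1.05) and with scaling to the median (-1.01), and Pla2g4c was not with either other treatment of background. The member deleted by design is among those lower at 1.5-fold. Ordered by difference, the family ran Pla2g4d, Pla2g4f, Pla2g4a, Pla2g4b, Pla2g4e and Pla2g4c. Pla2g4a and Pla2g4b did not differ beyond their error (0.04 ± 0.29), nor clearly did Pla2g4e and Pla2g4c (0.40 apart, 1.27 times the error). Between Pla2g4f and Pla2g4a the gap was 0.68, or 2.36 times the error, and between Pla2g4d and Pla2g4f it was 2.07, or 7.07 times.

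**Figure D2:**
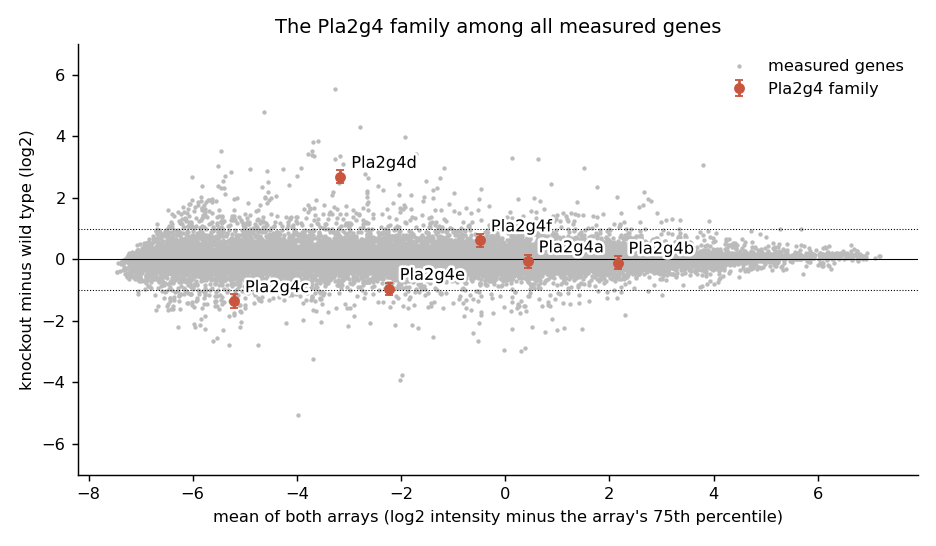
Difference between pools (knockout minus wild type, log2) against the mean scaled log2 signal of both arrays, for 19397 measured genes (grey) and the Pla2g4 family (red, bars are the scanner error); dotted lines mark 2-fold. Pla2g4d (2.68), Pla2g4c (-1.36) and Pla2g4e (-0.96) lie outside the central 95% of differences among the 25% of genes with like signal. Pla2g4f (0.62) lies inside it, and Pla2g4a and Pla2g4b lie near 0. The sizes for Pla2g4c and Pla2g4d depend on how background is treated.

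The genes around the chromosome 2 cluster were read beside it. Within 1 Mb of the cluster's ends, 52 other genes were measured, with a median of -0.03 log2. None of them (0) was 1.5-fold higher, against 6.74% over all measured genes, and 2 were lower by that size, against 4.5%, among them 9130007G19Rik (-0.62), which lies 932 kb from the Pla2g4e 3′ probe. Between Pla2g4b and Pla2g4e lie Sptbn5, a spectrin (-0.08), and Ehd4, an endocytic ATPase (0.54 ± 0.20, the highest of the 52). On the outer sides, Jmjd7 stood at 0.07 next to Pla2g4b, and Vps39, a subunit of an endosomal tethering complex, at 0.02 next to Pla2g4f.

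**Figure D3:**
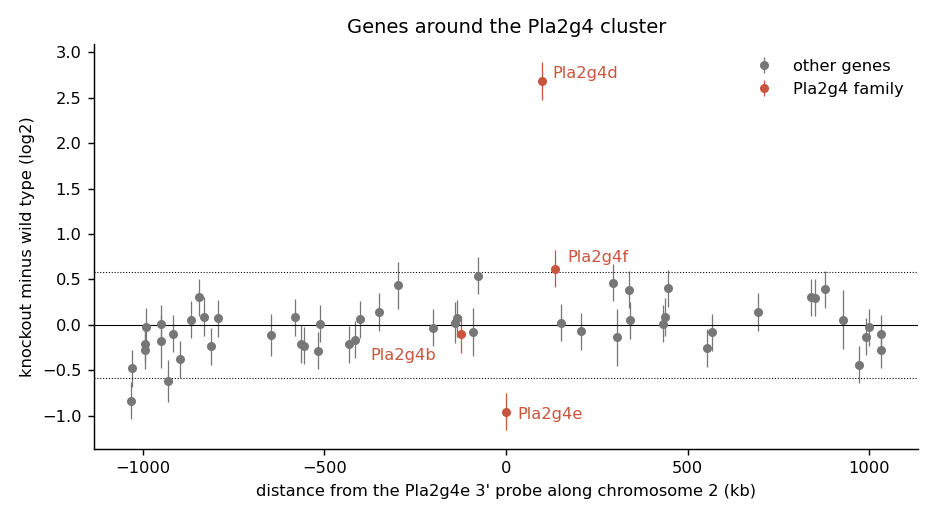
Difference between pools (log2, bars are the scanner error) by distance from the Pla2g4e 3′ probe in kb along chromosome 2, for 52 other genes (grey) and 4 Pla2g4 members (red); dotted lines mark 1.5-fold. Pla2g4d and Pla2g4f lie above the upper line and 0 of the 52 do.

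The promoter of Pla2g4d is shown because it is the member with the largest difference. RefSeq windows were found for 5 of the 6 members. That of Pla2g4d lies at GRCm38.p6 chr2:120289020-120289319, minus strand, and capitals mark a motif match.
Pla2g4d promoter: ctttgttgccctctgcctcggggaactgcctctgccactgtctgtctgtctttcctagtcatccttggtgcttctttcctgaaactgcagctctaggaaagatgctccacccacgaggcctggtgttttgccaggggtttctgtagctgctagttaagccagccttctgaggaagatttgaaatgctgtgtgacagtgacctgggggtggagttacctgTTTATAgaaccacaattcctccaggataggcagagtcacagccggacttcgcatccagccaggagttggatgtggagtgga
Both strands were searched for the core promoter motif TATAAA, the nuclear factor Y motif CCAAT, the AP-1 motif TGANTCA, the STAT motif TTCNNNGAA and, as the core of the glucocorticoid receptor element, ACANNNTGT. The Pla2g4d window held 1 match, TATAAA on the opposite strand, ending 25 bases before the start site, and 13.6% of all windows hold that motif. The windows of Pla2g4e and Pla2g4f held 0 matches to any of these motifs. A window of Pla2g4a held TATAAA and CCAAT, and a window of Pla2g4c held CCAAT at 2 places, while the other window of each held 0. AP-1 letters occur in 7.81% of windows, those of the glucocorticoid receptor core in 6.85%, STAT letters in 8.3% and CCAAT in 37.4%. Most windows thus lack any given motif of these, and whether members share their control was not tested.

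Genes with the nearest differences were sought among those brighter than the median of measured genes. With 2 arrays, a pattern is a single difference. Pla2g4c, Pla2g4d and Pla2g4e are themselves dimmer than that median, so they are set beside brighter genes. The sizes for Pla2g4c and Pla2g4d depend on how background is treated, and nearest genes were not sought under the other treatments. For Pla2g4d (2.68) they were Hif3a, an oxygen-regulated transcription factor (2.45), Zbtb16, a zinc finger factor (2.96), and Il22ra2, a soluble binding protein for interleukin 22 (2.96). For Pla2g4c (-1.36) they were the hair keratin Krt86 (-1.35), Gm11564 (-1.35) and the hair matrix gene Krtap26-1 (-1.34). For Pla2g4e (-0.96) they were Mybl2 (-0.96), a cell cycle transcription factor, the replication gene Mcm2 (-0.95) and Adgrb2 (-0.97). For Pla2g4f (0.62) they were Ccm2l, Icam2 and Gpt2, all at 0.62.

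Markers of cell states in skin also differed between the pools. In bulk skin, fewer cells of a type and less RNA per cell cannot be told apart. Of 10 markers of stressed or psoriasis-like keratinocytes, 9 were higher in knockout skin by 1.5-fold or more and 0 lower, against 6.74% and 4.5% of all measured genes, with Krt6b at 3.08 and Krt17 at -0.21. Their signals summed to 164180 in wild-type skin and 315133 in knockout skin. Of 12 hair follicle markers, 7 were lower by that size and 0 higher, with sums of 323553 and 195318. Of 10 measured neutrophil markers, 5 were higher, all with readings under 300 on both arrays, and Camp was lower (-1.0), while the sums, led by Csf3r, were 145742 and 133884. Of 8 mast cell markers, 3 were higher and 0 lower, with Fcer1a at 3.80 and sums of 94808 and 137205. The wild-type reading of Fcer1a was dim (46.3, against 606 in knockout skin). Of 11 skeletal muscle markers, 3 were higher and 0 lower, with Tnni1 at 1.36 and sums of 735777 and 882848. Of 10 macrophage markers 1 was higher and 0 lower, and of 8 fibroblast markers 0 were either. The part of any of these in the differences of Pla2g4d, Pla2g4f or Pla2g4c was not tested.

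Genes of the synthesis, breakdown and reception of N-acylethanolamines, the pathway of Pla2g4e, had a median of 0.06 log2 over 16 measured genes, beside 0.01 over all genes. Of the 16, 1 was at least 1.5-fold higher, near the 6.74% of all measured genes. It was Ppara, a nuclear receptor for these lipids (1.21, readings of 944 and 2046). Abhd4, a hydrolase of N-acyl phospholipids, came next (0.57). Lower by that size were 0, against 4.5% of all measured genes. Faah, which degrades N-acylethanolamines, stood lowest at -0.41, and Plaat1, another N-acyltransferase, at -0.27. Napepld, the phospholipase that releases them, was at 0.10, and Naaa, their lysosomal amidase, at -0.08; both were named after their values were seen. The receptors Gpr18, Gpr55 and Gpr119 were not well above background in either pool.

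Genes that act on the products of Pla2g4a also lay near the middle of all genes. Genes that oxygenate arachidonic acid or turn the first products into prostaglandins and leukotrienes had a median of 0.05 log2 over 19 measured genes. Of these, 0 were 1.5-fold higher and 0 lower, against 6.74% and 4.5% of all measured genes. Alox5ap, which presents arachidonic acid to 5-lipoxygenase, was highest (0.48), then the prostacyclin synthase Ptgis (0.44). The prostaglandin E synthase Ptges2 was lowest (-0.44), then the inducible cyclooxygenase Ptgs2 (-0.34). Alox8 and Alox15 were not well above background in either pool. Among 14 measured genes of lysophospholipid reacylation, which return fatty acids to the membrane, 12 were below 0 and the median was -0.14. The median over all measured genes was 0.01, and the scanner error of a gene had a median of 0.20, so most such shifts are small. The acyl-CoA synthetase Acsl6 was the 1 member lower by 1.5-fold (-0.83), against 4.5% of all measured genes, and 0 were higher. Acsl1 was the next lowest (-0.35), with Mboat2 (0.21) and Lpcat2 (0.16) highest.

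The upstream regulators of the cytosolic enzymes showed no member past 1.5-fold, against 6.74% of all measured genes higher and 4.5% lower. Over 21 kinases and binding partners the median was 0.13 log2. Mknk2, a kinase downstream of MAP kinases, was highest (0.49), then the calmodulin kinase gene Camk2b (0.42), and Camk2a (-0.46) and the p38 gene Mapk11 (-0.41) were lowest.

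Other phospholipase A2 families also held members in both directions. Of 10 measured secreted phospholipases A2, 0 were 1.5-fold higher and 2 lower, against 6.74% and 4.5% of all measured genes. The 2 were Pla2g2e (-1.3) and Pla2g10 (-0.88, with dim readings of 47.7 and 24.3). Pla2g2d stood at 0.55, Pla2g2f at 0.33 and the median at -0.02. Pla2g1b, named after its values were seen, counts through a dim probe reading 22.6 and 22.3 (0.07). Another Pla2g1b probe read 12.6 in wild-type skin and 112 in knockout skin. It was not well above background on both arrays, so these counts leave it out. Of 14 calcium-independent, lysosomal or PAF-hydrolysing enzymes, 2 were higher and 2 lower, beside the same shares, with a median of 0.04. Pnpla7 (0.88) and Pnpla2, the main triglyceride lipase (0.83), were higher, and Pnpla5 (-1.15) and Pnpla3 (-0.61) lower. The 2.68 of Pla2g4d was larger than any difference taken for a measured gene in either family, a comparison that leaves out that Pla2g1b probe.

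**Figure D4:**
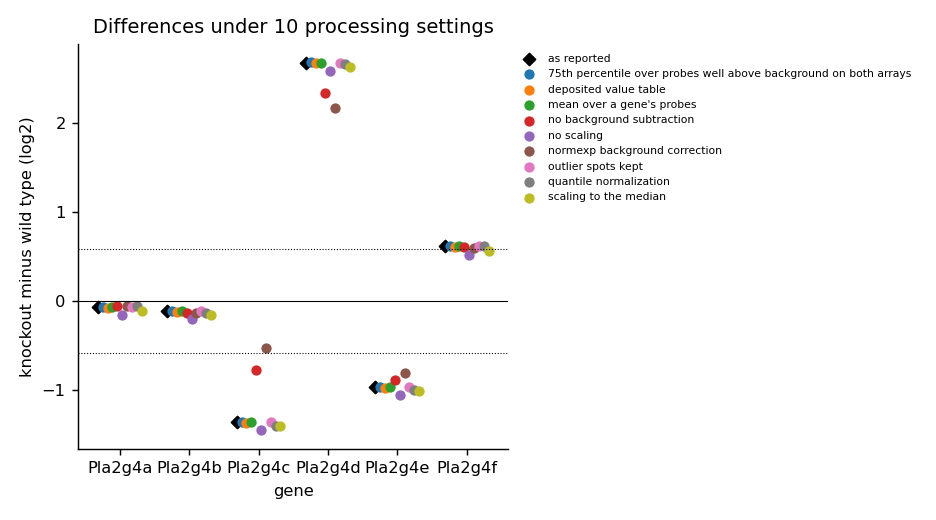
Difference of each Pla2g4 gene (knockout minus wild type, log2) under 10 processing settings, with the reported value as a black diamond; dotted lines mark 1.5-fold. Each gene keeps 1 sign in all 10 settings, and the spread is widest for Pla2g4c, from -1.45 to -0.52, and Pla2g4d, from 2.18 to 2.68. The mean over a gene's probes repeats the reported value, because each gene has 1 probe well above background on both arrays.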

How the data were processed

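RNA from 2 skin pools was labelled with Cy3 and read on 1-colour Agilent arrays of design 026655 with mm9 positions, per the labels and file headers. The deposited intensity values come from Agilent Feature Extraction 11.5.1.1, per the submitters' processing notes; per the file headers, that software had already corrected them for background and for position on the array. The deposited value table holds a ratio, the same intensity divided by a constant per array (2406 and 2273); its medians were 0.0946 and 0.0969, and its scale is linear, uncentred, with 1 column per pool.

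Control spots and 234 outlier spots were left out, spots of a probe were averaged in log2, and each array's 75th percentile was subtracted. A gene took its brightest probe, counting only probes that both arrays marked as well above background. Names came from accessions for 28324 probes, symbols for 2209 and synonyms for 174 in a RefSeq table (GRCm38.p6), used for names alone; 1768 kept the file's name and 6954 had none. The share of spots marked as well above background was 78.8% (wild type) and 81.6% (knockout), and 0 were saturated. The number of arrays limits the precision, and no p-value was computed.

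The genes named were all probes of the members, the 2 highest and 2 lowest of each list with members past 1.5-fold, nearest or 1.5-fold neighbours within 1 Mb, and the 3 nearest differences for members past 1.5-fold. A gene that the rule takes is not reported here. Members, lists and rules were chosen with earlier results of these data known. The scripts were tested on simulated data. Alternatives used limma 3.58.1 (normexp, offset 50) and Python 3.11.15.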

Additional observations from a re-analysis of the deposited data

How the results depend on the processing

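All 6 members kept their sign in the 9 alternatives run for them, and Pla2g4a, Pla2g4b, Pla2g4e and Pla2g4f moved by less than the scanner error in each. These alternatives are not independent checks. Averaging a gene's probes could change nothing, since each member had 1 probe well above background on both arrays. The other scalings by a percentile, no scaling and the deposited value table each moved all members by 1 shared amount. Pla2g4c was -0.77 log2 with no background subtraction and -0.52 with normexp, and Pla2g4d was 2.34 and 2.18 (2.175). The counts of genes past a size, 1308 higher and 872 lower at 1.5-fold and 433 and 279 at 2-fold, moved more. With normexp they were 855 and 422 at 1.5-fold and 234 and 121 at 2-fold. With no background subtraction, 545 genes were 1.5-fold lower, and 260 were higher and 151 lower by 2-fold. With no filter on dim probes, which tests 24288 genes, they were 2225 and 1344 at 1.5-fold and 953 and 563 at 2-fold. Among the 9698 genes above the median signal, they were 399 and 236 at 1.5-fold and 101 and 78 at 2-fold. Apart from the number of genes tested, the cause was not tested. No paired analysis was possible because each group has 1 array. For the same reason no array could be left out. Signals near background limit Pla2g4c and the 5′ probe of Pla2g4e most, and they limit the size for Pla2g4d. In wild-type skin Pla2g4d read 98.3 and Pla2g4c 96.9.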
